A study of Saccharomyces cerevisiae with 8 samples.

Results

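The synHPRT1 insert is synthetic DNA with the sequence of the human locus HPRT1, which encodes an enzyme of purine salvage, carried in budding yeast. Its CAGE peaks were the peaks of the 4 synHPRT1 libraries that lay wholly within positions 1 to 100578 of the contig that holds the insert and its vector, on either strand. There were 366 such peaks, among 12670 peaks listed for the same 4 libraries and 25747 peaks listed for all 8 libraries of the study. CAGE (cap analysis of gene expression) sequences the capped 5′ ends of RNA, and a peak is a stretch of 1 strand where such ends pile up above background. The deposited lists were made separately for each library and each strand.

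All strains were BY4741, a haploid laboratory strain of mating type a. The groups were synHPRT1 on a yeast artificial chromosome (YAC), synHPRT1 integrated in the genome, and the same with synHPRT1R, the locus sequence in reversed order, with 2 libraries in each of the 4 groups. Since SC-Leu medium was used for YAC strains and YPD for integrated ones, an effect of context and one of medium cannot be told apart. After overnight growth at 30 °C, the yeast was set back to an OD of 0.1 and harvested 6 h later, at an OD near 0.6. The labels do not tell whether the replicates of a group came from separate cultures. The p-values below therefore speak only of the spread among these libraries, and that spread may be technical. Read depth is not known as a count.

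Yeast promoters are short, depleted of nucleosomes and compact, and RNA polymerase II often initiates on both sides of one open stretch, once in each direction. Within a promoter it commonly uses several start sites in a short stretch, scanned downstream from where the polymerase assembles. The human locus did not evolve in yeast, so its start regions have no yeast gene to serve. The HPRT1 promoter of human cells is a CpG-rich housekeeping promoter. No annotation of the insert was used here, so start regions are named by strand and contig position, counted from 1 at the first base of the insert.

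The peaks were spread over the whole insert and over both strands. YAC replicates 1 and 2 had 94 and 92 peaks, and integrated replicates 1 and 2 had 87 and 93. On the plus strand these were 52, 47, 44 and 48 peaks, and on the minus strand 42, 45, 43 and 45. The YAC libraries held on average 3 more peaks than the integrated ones, which did not differ beyond the spread (exact two-sided permutation p = 0.667, with 0.333 the smallest that 2 against 2 libraries allow). The insert carried 0.910 ± 0.0309 peaks per kb (SD, n = 4), against 0.254 ± 0.00554 on the 16 native nuclear chromosomes of the same libraries. Peaks covered 14.1% ± 1.30 of insert strand bases and 2.94% ± 0.0526 of native ones.

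Same-strand peaks that overlapped by at least 1 bp were merged over the 4 libraries into start regions. This gave 139 regions, 78 on the plus and 61 on the minus strand. They measured 200 to 997 bp, with a median of 271 bp, and together covered 44.1% of the insert on at least 1 strand, in 101 blocks. Each 10 kb of insert held 8 to 19 regions. The sixth, from 50 to 60 kb, held the fewest and the third, from 20 to 30 kb, the most.

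Neighbouring regions on the plus strand had summits, the positions of highest pileup, a median of 909.5 bp apart, with quartiles of 617.5 and 1516 bp. On the minus strand the median was 1197 bp, with quartiles of 698 and 2164.5 bp. Within single libraries, neighbouring same-strand summits lay a median of 1389, 1898.5, 1713 and 1647 bp apart, in the order YAC replicates 1 and 2 and integrated replicates 1 and 2. This order of libraries is kept below. The mean of these medians was 1662 ± 211 bp (SD, n = 4), against 5401 ± 162 bp between native peaks.

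The longest stretch with no region on either strand measured 4463 bp, from 51344 to 55806. Of the stretches over 2000 bp there were 3 others, of 3488 bp (88202 to 91689), 2809 bp (1463 to 4271) and 2277 bp (59333 to 61609). The other gaps were short: the median gap was 303.5 bp. The 2 strongest regions of the insert stood near the longest gap and pointed away from it: a minus-strand region from 50346 to 50737 on its left and a plus-strand region from 56404 to 56745 on its right. The weaker regions next to the gap were the plus-strand region 50795 to 51343 and the minus-strand region 55807 to 56101.

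**Figure D1:**
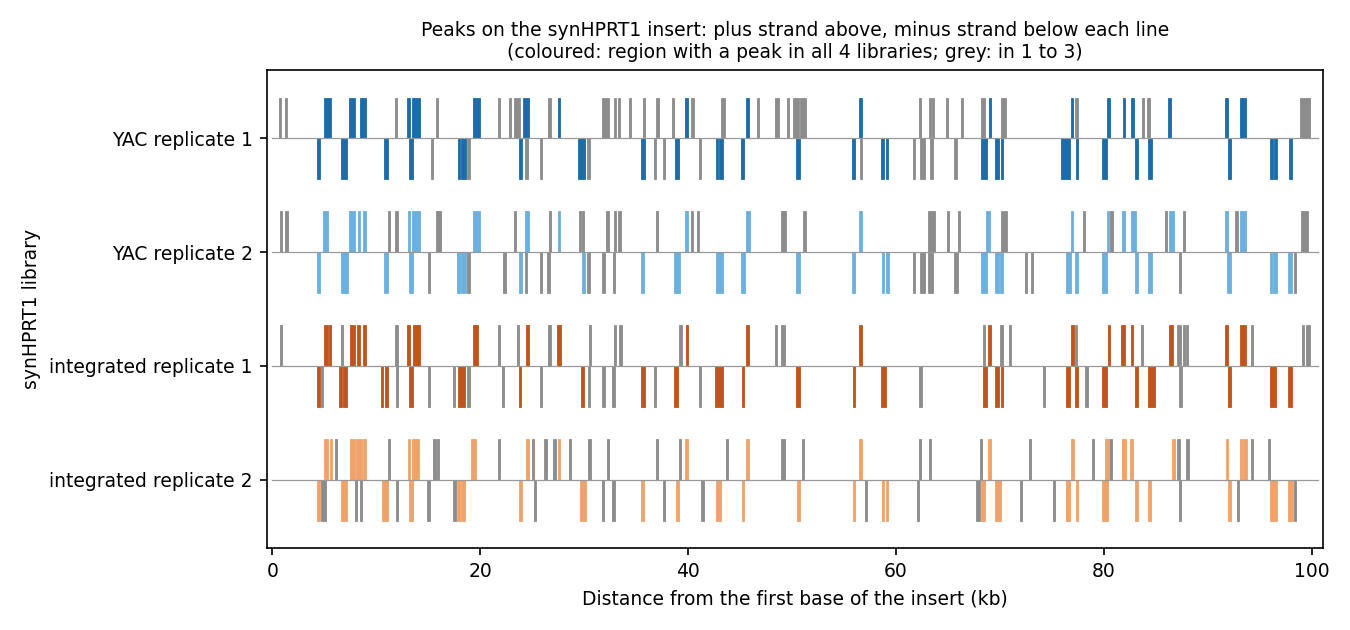
Position of every insert peak in the 4 synHPRT1 libraries, in kb from the first base of the insert, with plus-strand peaks above and minus-strand peaks below the line of each library. Coloured peaks belong to the 43 regions found in all 4 libraries and grey peaks to the others, and the longest stretch without any peak runs from 51344 to 55806.

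At the left end the first region was a plus-strand region from 590 to 923, called in 3 libraries at 5.48, 1.61 and 2.98 times the genome-wide background and not called in integrated replicate 2. The region from 1245 to 1462, also on the plus strand, was called in the YAC libraries alone, at 2.37 and 3.94 times background. At the right end a plus-strand region of 932 bp from 98915 to 99846 was called in 3 libraries, at 21.1, 16.05 and 3.79 times background, and again not in integrated replicate 2. Its last base was the last base of any insert peak. Just past the limit, a minus-strand peak of YAC replicate 1 from 100569 to 100806 and a plus-strand peak of YAC replicate 2 from 100516 to 100715 spanned the end of the insert and were not counted. No integrated library had a peak across that end. There the contig passes into what was taken as vector, on which the integrated libraries had 0 and 1 peaks. The contexts are therefore not compared at that end.

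Insert peaks were wide. Their median widths were 259, 256.5, 234 and 219 bp, against 206, 208, 210 and 203 bp for native peaks of the same libraries. The insert median was higher in 4 of 4 libraries, by 35.4 ± 18.1 bp on average (SD, n = 4). The exact two-sided sign-flip test gave p = 0.125, below which 4 libraries cannot go. Every list has a floor of 200 bp, and 23.4%, 19.6%, 32.2% and 43.0% of insert peaks lay on it, against 39.4% to 47.6% of native peaks. Both YAC values of the median width exceeded both integrated ones.

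The difference was also present in the widest peaks. Peaks over 500 bp numbered 16, 14, 8 and 8 on the insert, or 17.0%, 15.2%, 9.20% and 8.60% of its peaks. Of native peaks, 0.317% to 0.815% were that wide. The mean difference in this share was 11.9 ± 4.14 percentage points (SD, n = 4, higher on the insert in 4 of 4 libraries). Away from annotated gene starts, where native peaks had a median width of 200 bp in each library, the mean difference in median width was 42.1 ± 19.1 bp (SD, n = 4). Insert peaks were also higher, at a median of 11.2 times the genome-wide background (mean of 4 libraries). Native peaks stood at 5.63 times and those outside gene starts at 2.91 times. The part of peak height in the width differences was not tested.

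**Figure D2:**
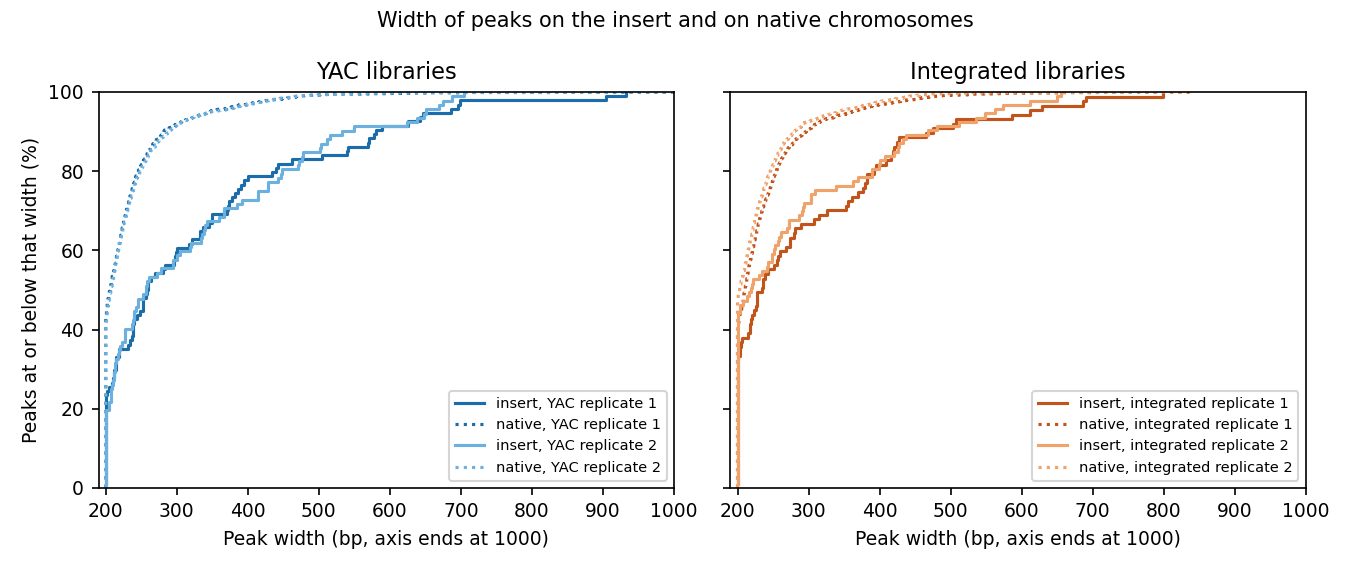
Cumulative share of peaks (%) by peak width (bp) for the YAC libraries (left) and the integrated libraries (right), with solid lines for the insert and dotted lines for native chromosomes. Insert lines lie below the native ones because more of their peaks are wide; medians are 219 to 259 bp on the insert and 203 to 210 bp on native chromosomes.

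Among regions called in all 4 libraries, the widest ran from 8056 to 9052 on the plus strand (997 bp). Its summits lay at 8850, 8784, 8782 and 8443, so integrated replicate 2 peaked upstream of the other 3. The next widest were the minus-strand region 75842 to 76824 (983 bp) and the plus-strand region 4822 to 5736 (915 bp). The narrowest were the plus-strand region 91690 to 91939 (250 bp), the minus-strand region 77230 to 77482 (253 bp) and the minus-strand region 23730 to 23983 (254 bp).

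Peaks of the 2 strands overlapped more often on the insert than on native chromosomes in each library. An opposite-strand peak overlapped 28, 27, 21 and 19 insert peaks, or 29.8%, 29.3%, 24.1% and 20.4%. For native peaks the shares were 2.40%, 2.60%, 2.80% and 3.77%. The difference was 23.0 ± 5.04 percentage points (SD, n = 4, positive in each of the 4 libraries; p = 0.125 by the exact sign-flip test). Against native peaks outside gene starts, of which 7.68% ± 1.39 were overlapped, it was 18.2 ± 5.58 points. Insert peaks were also denser (0.910 against 0.254 per kb) and wider than native ones, and the part of density and width in the difference was not tested.

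A divergent pair is a minus-strand start with a plus-strand start to its right, so that the 2 transcripts run apart. By summits within 300 bp, 12.8%, 17.4%, 11.5% and 8.60% of insert peaks had such a partner, against 0.782% to 1.902% of native peaks. The difference was 11.2 ± 3.84 points (SD, n = 4, positive in each library; p = 0.125 by the exact sign-flip test). The convergent order, with the plus-strand summit on the left, was the more common on the insert in 3 of 4 libraries: 17.0%, 6.52%, 20.7% and 12.9% on the insert and 2.14% to 4.17% of native peaks. Denser peaks meet more partners in either order. Insert peaks were denser (0.910 against 0.254 per kb), and the part of density in these differences was not tested.

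Summits are not the transcription start in these lists. In native peaks at gene starts they lay a median of 59 to 64 bp inside the annotated coding start on both strands, whereas the 5′ edge of the peak lay a median of 49 to 55 bp upstream of it. Summits of opposite strands are therefore displaced in opposite directions, which lengthens the distance between summits within divergent pairs and shortens or inverts it within convergent ones. With the 5′ edge in place of the summit, a measure chosen after seeing the data, 23.4%, 21.7%, 23.0% and 19.4% of insert peaks had a divergent partner within 300 bp. The native shares were 12.9%, 13.4%, 13.8% and 12.6%. The difference of 8.68 ± 1.58 points (SD, n = 4, positive in each library; p = 0.125 by the exact sign-flip test) was smaller than that in overlap. Outside gene starts 9.89% ± 0.970 of native peaks had such a partner, a difference of 11.98 ± 2.56 points. The part of density in these differences was not tested either.

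**Figure D3:**
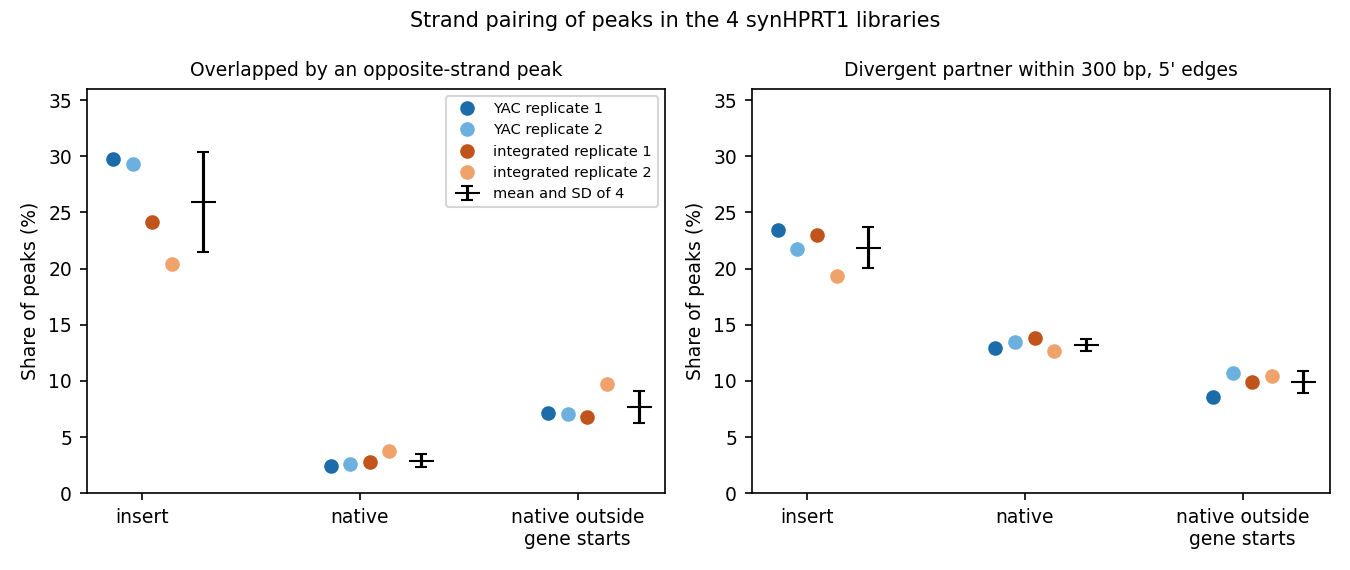
Share of peaks (%) overlapped by a peak of the opposite strand (left) and with a divergent 5′ edge within 300 bp (right), for insert peaks, native peaks and native peaks outside gene starts. Points are the 4 libraries and bars the mean and SD; the insert means are 25.9% and 21.9%, above every native value in both panels.

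Over the merged regions, 70 of 139 (50.4%) were overlapped by a region of the other strand, in 38 plus-minus pairs, against 414 of 5334 native regions (7.76%). The share was higher among the more recurrent regions: 18 of 45 regions found in 1 library, 12 of 27 in 2, 14 of 24 in 3 and 26 of 43 in 4. The wider regions were also the more recurrent ones, as given below. By 5′ edges of the merged regions there were 21 divergent pairs of regions within 300 bp, with a median gap of 189 bp between the edges. In 5 of them both regions were found in all 4 libraries. A merged edge is the outermost of any library, so the gap within a library can be wider. By summits there were 11 divergent region pairs, none of which had both regions in all 4 libraries, so the pairs named next are those by 5′ edges.

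The closest pair had 5 bp between its merged edges: the minus-strand region 75842 to 76824 and the plus-strand region 76830 to 77104. Its plus-strand member stood at 349, 234, 69.7 and 62.2 times the genome-wide background and its minus-strand member at 35.2, 51.2, 6.27 and 5.58 times. The plus side was thus the stronger in each library. The plus-strand 5′ edge was steady, at 76830, 76830, 76831 and 76830, although the summits moved between 76933 and 77010. The minus-strand 5′ edge lay at 76745, 76824, 76745 and 76745, so the gap of 5 bp was that of YAC replicate 2 alone. It was wider in the other libraries.

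The pair 45133 to 45518 (minus) and 45605 to 45970 (plus) had 86 bp between its edges. The minus side stood at 43.8, 54.3, 5.88 and 11.1 times background and the plus side at 22.8, 34.2, 4.24 and 13.4 times. By these ratios the minus side was the higher except in integrated replicate 2. Each strand has its own background, of 43.2 to 50.0 tags in the plus and 74.7 to 86.2 in the minus lists. Equal ratios therefore mean more tags on the minus strand. In the pair 23730 to 23983 (minus) and 24090 to 24658 (plus), with 106 bp between the edges, the minus side stood at 37.0, 29.0, 17.0 and 19.2 and the plus side at 40.5, 28.9, 7.44 and 18.3. By these ratios the sides were close except in integrated replicate 1, where the minus side was the higher. The nearest plus-side 5′ edges of the contexts lay 126 bp apart, so the gap of 106 bp does not hold in both contexts.

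The pair 6454 to 7236 (minus) and 7405 to 7936 (plus) had 168 bp between its edges, and its sides stood at 132, 88.5, 25.4 and 17.0 and at 83.0, 99.3, 13.9 and 23.5. In the last pair, 4272 to 4559 (minus) and 4822 to 5736 (plus), 262 bp apart by merged edges, the minus side was the stronger in each library. It stood at 129, 73.8, 29.2 and 22.7 against 17.2, 33.4, 9.99 and 10.2. The minus 5′ edges lay at 4559, 4549, 4559 and 4532 and the plus ones at 4960, 4822, 4947 and 4986. Within single libraries the gap thus exceeded 300 bp except in YAC replicate 2. Just outside the limit of 300 bp was the pair of the minus-strand region 55807 to 56101 with the strongest plus-strand region, 56404 to 56745, at 302 bp.

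Start regions were found in all 4 libraries about as often as native ones, and in 1 library alone less often. Insert peaks covered more of their strands (14.1% against 2.94% of bases), and the part of this in recurrence was not tested. Merging by summits within 100 bp instead gave 174 insert regions, 31 of them in all 4 libraries. Of the 139 insert regions, 45 (32.4%) had a peak in 1 library, 27 (19.4%) in 2, 24 (17.3%) in 3 and 43 (30.9%) in all 4. Of 5334 native regions built in the same way, 42.1% were found in 1 library and 29.3% in all 4, so the share of insert regions found in all 4 was near the native one. The 43 recurrent regions were 19 on the plus and 24 on the minus strand, spaced by a median of 4060 bp on the plus and 4010.5 bp on the minus strand.

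Recurrent regions were wider and stronger. From 1 to 4 libraries, the median width of insert regions was 200, 253, 327.5 and 532 bp, and that of native regions 200, 227, 244 and 269 bp. Median enrichment, the summit pileup over the genome-wide background of the list, was 4.29, 5.28, 7.41 and 22.6 for insert regions and 2.48, 3.40, 4.34 and 12.7 for native ones. A region merged over more libraries can only grow, so part of the rise in width follows from the merging.

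The libraries did not share regions equally. The 2 YAC libraries shared 67 regions, 76.1% and 77.0% of those called in each, and the integrated pair shared 58, or 71.6% and 66.7%. Of native regions the YAC pair shared 67.5% and 68.5% and the integrated pair 66.5% and 64.9%. Across contexts the libraries shared 52 to 62. In integrated replicate 2 alone 19 regions were found (13.7%), against 12, 10 and 4 in the other libraries. Of native regions 12.6% were found in it alone, also the highest share of the 4 libraries, so the insert share was near the native one. From it alone 12 regions were missing (8.63%), against 5, 2 and 5 from the others, and 3.77% of native regions were missing from it alone, again the highest native share. Without that library there were 122 regions, 56 of them in all of the other 3.

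In the recurrent regions the summit moved between libraries more than in native ones. A library's summit lay a median of 25.5, 21.5, 25 and 25 bp from the median summit of its region, against 6.5, 6, 7 and 7 bp in native regions. The mean difference was 17.6 bp (n = 4, larger on the insert in each library; p = 0.125 by the exact sign-flip test). With any 1 library left out it was 1.67 to 7.17 bp, where the median of 3 summits is one of them. The range of the 4 summits was at most 50 bp in 9 of 43 regions (20.9%) and in 66.1% of native ones, and over 200 bp in 7 of 43 (16.3%) and 2.68%. Insert regions were also wider, which leaves a summit more room.

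The tightest region was the minus-strand region 50346 to 50737, with summits at 50539, 50540, 50541 and 50542. The loosest was the minus-strand region 58592 to 59332, with summits at 58731, 59190, 58732 and 59112, a range of 459 bp. There the first replicate of each context peaked at 58731 or 58732 and the second at 59112 or 59190, so context did not order the positions.

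**Figure D4:**
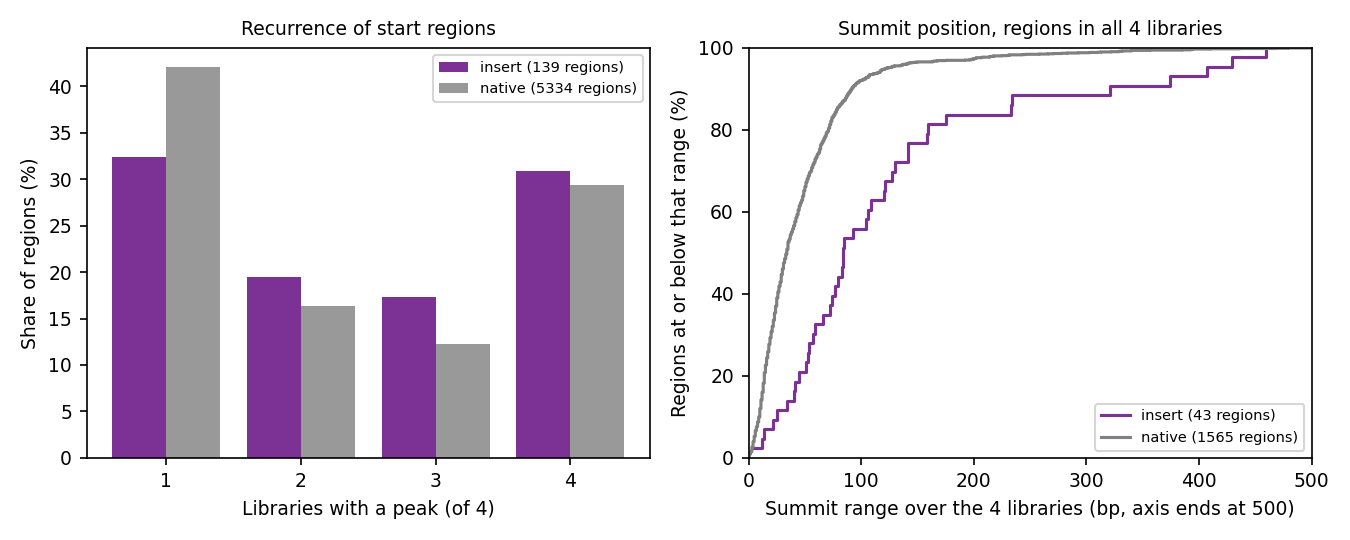
Left, share of start regions (%) by the number of synHPRT1 libraries with a peak, for 139 insert and 5334 native regions. Right, cumulative share (%) of the regions found in all 4 libraries by the range of their 4 summits (bp); the median range is 84 bp for 43 insert regions and 34 bp for 1565 native ones.

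In 8 of the 43 regions (18.6%) the summits of both YAC libraries lay at least 50 bp from those of both integrated libraries, on one side of them. The same was found in 1.47% of 1565 native regions, and in 4 of the 68 native regions (5.88%) that were at least as wide as the median recurrent insert region. The limit of 50 bp was chosen after seeing the data, and there is no replicate of the count, so no test was made. With 1 library left out the count was 15 to 18, since a context then has a single summit to set against the other. In 6 of the 8 regions the YAC summits were upstream of the integrated ones in the direction of transcription. The same held in 12 of the 23 native regions with summits apart, and in 3 of the 4 wide ones.

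The widest such gap was in the plus-strand region 93062 to 93750. Its summits lay at 93251 and 93195 in the YAC libraries and at 93560 and 93569 in the integrated ones, 309 bp between the nearest of the contexts. The plus-strand region 7405 to 7936 had summits at 7592 and 7582 on the YAC and at 7739 and 7740 when integrated. In the minus-strand region 29417 to 30127 they lay at 29939 and 29933 on the YAC and at 29797 and 29811 when integrated. In each of these 3 regions replicates agreed within 56 bp, and the gap between contexts was larger than the distance within either.

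The other 5 were the plus-strand regions 24090 to 24658, 45605 to 45970, 82536 to 83072 and 91690 to 91939 and the minus-strand region 97731 to 98209, with gaps of 50 to 93 bp. By 5′ edges in place of summits, 2 of the 43 regions (4.65%) were at least 50 bp apart, 24090 to 24658 and 93062 to 93750, against 1.66% of native regions. In the other 6 the contexts shared much of their peak interval and differed in where within it the pileup was highest.

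Most recurrent regions were higher on the YAC. In 35 of 43 (81.4%) the enrichment of both YAC libraries exceeded that of both integrated ones, and in 1 the reverse held. Of native regions 17.8% had both YAC libraries higher and 25.3% both integrated ones. The ratio of the YAC to the integrated mean was 2.67 in the median region, ranging from 0.561 to 7.30, whereas the native median was 0.927 with quartiles of 0.697 and 1.29. Median enrichment over the 43 regions was 35.2, 29.0, 13.4 and 13.1, and over native regions 12.5, 12.4, 12.9 and 13.8.

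The deposited fold does not show this difference. It divides the summit by the local background, and that background stood over 5% above the genome-wide one for 85.1%, 95.7%, 63.2% and 66.7% of insert peaks, against 19.9% to 21.3% of native ones. The median deposited fold of the 43 regions was 10.9, 8.89, 9.82 and 11.6. As a percentile among the native peaks of the same library, the fold was higher in both YAC libraries for 9 regions (20.9%, with 17.3% of native regions) and in both integrated ones for 14 (32.6%, with 22% of native regions). Enrichment over the genome-wide background was added after seeing the data.

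**Figure D5:**
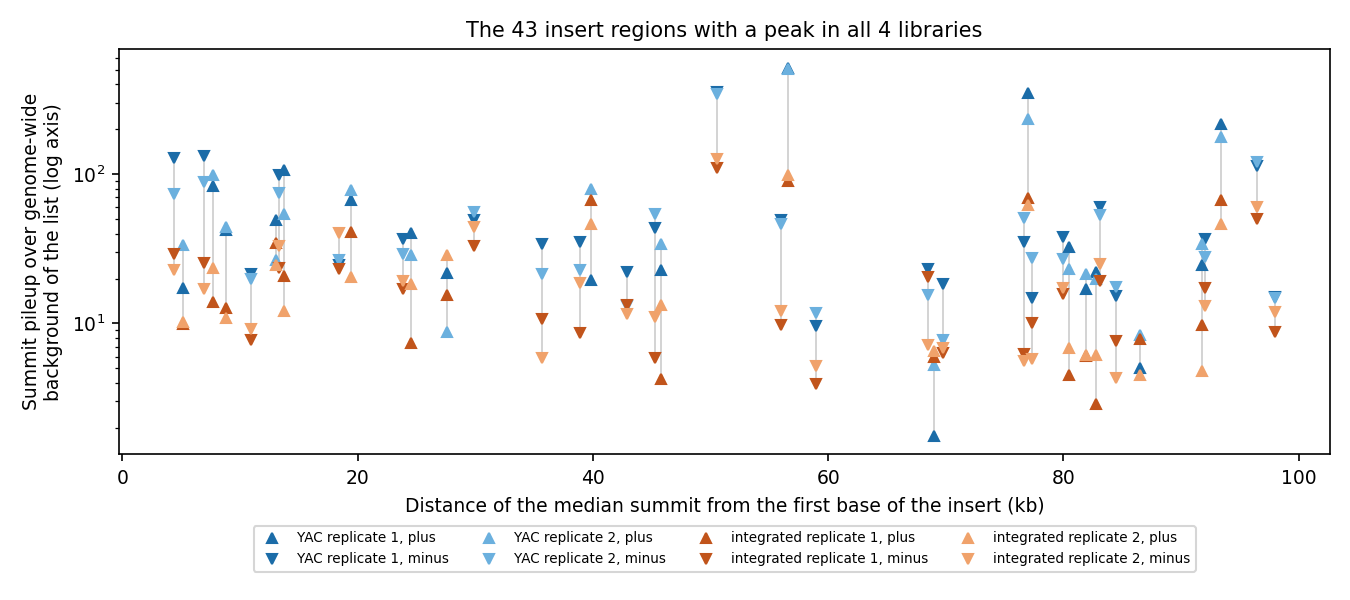
Summit pileup over the genome-wide background of the list (log axis) against position on the insert (kb) for the 43 regions found in all 4 libraries, with upward triangles for the plus and downward ones for the minus strand. Blue YAC points lie above orange integrated points in 35 regions, and the 2 tallest regions, 50346 to 50737 and 56404 to 56745, flank the longest gap.

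By median enrichment and by fold percentile, the strongest region was the plus-strand region 56404 to 56745. Its enrichment was 519, 504, 89.8 and 99.5, with a ratio of 5.40 between the means of the contexts, and its fold lay at the 98.2 percentile of native peaks. The minus-strand region 50346 to 50737 stood at 355, 344, 111 and 126 and at the 96.5 percentile. In both regions, the replicates of a context agreed closely. By summit pileup the minus-strand region was the higher in each library, as the background is set for each strand. Its pileups were 30947, 27203, 8876 and 9531 tags, against 25343, 22278, 4575 and 4748 in the plus-strand region.

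By fold percentile these were followed by the plus-strand region 39666 to 40021. It stood at 19.5, 80.0, 67.4 and 46.2 times background, so the YAC replicates lay on either side of both integrated libraries, with YAC replicate 1 the lowest. It was 1 of 4 recurrent regions whose mean enrichment was not higher on the YAC, with a ratio of 0.875. The others were the minus-strand region 17760 to 18590 (0.805) and the plus-strand regions 27383 to 27752 (0.688) and 68646 to 69152 (0.561).

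The next in rank was the plus-strand region 76830 to 77104, described above as one side of the closest divergent pair. The minus-strand region 96024 to 96639 stood at 114, 121, 50.5 and 59.9 times background, and the plus-strand region 93062 to 93750 at 218, 179, 67.3 and 46.4. The minus-strand region 13118 to 13510 stood at 99.1, 75.1, 23.6 and 32.8. The remaining 3 of the 10 strongest, the minus-strand regions 83006 to 83283 and 29417 to 30127 and the plus-strand region 19148 to 19982, lay at the 82.0 to 82.5 percentile of native fold.

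Some regions were called in 1 context only. There were 7 regions (5.04%) with a peak in both YAC libraries and neither integrated one, against 2.49% of native regions, and 8 (5.76%) of the reverse kind, against 3.06%. Leaving out 1 library gave 12 to 20 and 10 to 27, since fewer libraries must then agree. Of the 7 YAC-only regions, 4 lay between 61610 and 65969. On the minus strand, 61610 to 61843 stood at 6.37 and 10.0 times background, 63091 to 63591 at 13.8 and 11.3, and 65600 to 65969 at 18.7 and 13.1. The fourth, on the plus strand from 64854 to 65151, stood at 3.01 and 1.56. The lowest peaks of the YAC plus-strand lists stood at 1.43 and 1.47.

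Over the whole of that 10 kb, from 60001 to 70000, the libraries had 13, 10, 5 and 8 peaks. It held 15 of the 139 regions, and it was singled out after the positions were seen. The other YAC-only regions were 1245 to 1462 and 40233 to 40604 on the plus strand and 24282 to 24599 on the minus strand. Of these the second was the strongest, at 7.94 and 8.56 times background.

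The integrated-only regions were weaker and scattered. The minus-strand region 11907 to 12109 stood at 6.79 and 6.57 times background and the plus-strand region 39111 to 39369 at 5.51 and 6.51. The others were the minus-strand regions 4710 to 5136 and 17407 to 17649 and the plus-strand regions 30409 to 30654, 87087 to 87441, 87893 to 88201 and 94130 to 94344. None of these 8 exceeded 7.03 times background in either library.

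Compared with the peaks on synHPRT1R, whose bases are the same in reversed order, the layout of synHPRT1 peaks did not differ detectably in the 4 measures tested. The exact permutation tests were two-sided over 4 against 4 libraries (70 arrangements, smallest p 0.0286), with Benjamini-Hochberg adjustment over the 4 measures. synHPRT1 had 91.5 ± 3.11 peaks per library and synHPRT1R 95.0 ± 7.53 (SD, n = 4 each; exact p = 0.514, adjusted 0.686). Median widths were 242 ± 19.1 and 242 ± 23.5 bp (exact p = 1, adjusted 1).

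Median same-strand spacing was 1662 ± 211 bp on synHPRT1 and 1812 ± 135 bp on synHPRT1R (SD, n = 4 each; exact permutation p = 0.229, adjusted 0.686). By summits, 12.6% ± 3.66 of synHPRT1 peaks and 10.0% ± 3.51 of synHPRT1R peaks had a divergent partner (SD, n = 4 each; exact permutation p = 0.371, adjusted 0.686). Merging gave 141 regions on synHPRT1R, of which 53 (37.6%) were found in all 4 libraries, beside 43 of 139 on synHPRT1.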

How the data were processed

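The submitters' processing notes name MACS2 2.1.0, deepTools 3.5.0, SAMtools 1.9, Bowtie2 2.2.9, bcl2fastq 2.20 and the build sacCer3, and the sources used here do not give the step of each. For each library the authors deposited 4 of the 32 peak lists: each strand against 2 references, with the insert as part of a contig or inside chromosome XI. Each deposited peak has a fold (a ratio of its summit to background), a −log10 p-value, a −log10 q-value and a score, the last not used. These are the authors' values per peak and library, used only to rank, filter or describe peaks of a list.

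The contig lists were used, the forward ones as plus strand. Matching peaks between references (584 of 585 at 1 offset) put the insert, 100578 bp, after position 146350 of chromosome XI; 372 of 376 later chromosome XI peaks were shifted by that length. The remaining contig was taken as vector. Native peaks were those on the 16 nuclear chromosomes. A gene start was 300 bp upstream to 100 bp downstream of the 5′ end of one of 6002 protein-coding genes on the peak's strand. Summit pileups were solved from fold and p, assuming a Poisson model with 1 added to pileup and background; 97.7% to 99.5% came out whole within 0.1. Genome-wide backgrounds of the 16 contig lists were 41.0 to 52.7 tags at a position on the plus and 67.1 to 94.8 on the minus strand. The highest fold was 49.99. Intervals between libraries cover these libraries only, and no molecular identifiers are mentioned.

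Python 3.11.15, pandas 2.3.3, NumPy 2.4.6, SciPy 1.17.1 and matplotlib 3.10.9 were used, and the functions were tested on simulated data. Regions were named by rule: up to 10 recurrent regions of highest median fold percentile, up to 8 closest recurrent divergent pairs, up to 6 regions of each context-only kind, the 3 widest and 3 narrowest, those within 2000 bp of an end and those flanking the 3 longest gaps. No recurrent pair by summits met the rule; the pairs by 5′ edges, the regions with summits apart and other regions were named after their values were seen. The members, lists and tests were chosen with earlier results of these data known.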

Additional observations from a re-analysis of the deposited data

Results flagged for a closer look

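In the recurrent plus-strand region 4822 to 5736 the fold percentile was 37.0 in YAC replicate 1 and 59.5 to 62.5 in the other 3 libraries. It was the only 1 of 32 sets of 4 values in which 1 library stood this far from the rest, and chance sets apart about 1 in 20.

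The difference between synHPRT1 and synHPRT1R took opposite signs in the contexts, with no overlap of library values, for divergent summits and for opposite-strand overlap. None of the other measures compared in this way did so: peak number, median width, spacing, divergent 5′ edges and the share of peaks over 500 bp. The p-values below were not adjusted over these measures. The share of peaks with a divergent summit was 7.93 percentage points higher on synHPRT1 in YAC libraries and -2.84 points (lower) in integrated ones, a difference of 10.8 points (exact permutation p = 0.0556 over 36 arrangements, the smallest they can give). The share overlapped by an opposite-strand peak was 6.68 points higher on the YAC and -6.32 points (lower) when integrated, a difference of 13.0 points (exact permutation p = 0.0556). With 5′ edges the difference between contexts was 1.93 points (exact permutation p = 0.667). Convergent summits were not compared in this way. Their mean shares were 11.8% on synHPRT1 and 13.4% on synHPRT1R in YAC libraries, and 16.8% and 18.4% in integrated ones, so the sign was the same in both contexts.

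The vector part of the contig, which no comparison used, held 15 peaks in YAC replicate 1 and 14 in YAC replicate 2, of which 1 each spanned the end of the insert. The integrated replicates held 0 and 1.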

How the results depend on the processing

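Of 80 values under other settings, 72 were labelled as kept, 6 moved and 2 changed sign. For tested values, kept means only that the sign and the side of the 0.05 limit held, so their size could change. Against native peaks, the divergent difference by summits was 4.83 points with a window of 150 bp and 14.9 points with 500 bp. The overlap difference was 12.5 points when at least 50% of the shorter peak had to be overlapped. Against synHPRT1R, the divergent difference was 7.78 points with the window of 500 bp. With −log10 q of at least 10 the insert held 84.5 peaks per library. With that limit for presence alone, 4 regions were integrated-only. Merging by summits within 100 bp gave 12 YAC-only regions and 5 regions with summits of the contexts apart. A gap of 100 bp left 3 such regions, and 5′ edges 2. Against synHPRT1R, mean width gave a difference of 6.02 bp (exact permutation p = 0.629) and divergent 5′ edges -1.77 points (exact permutation p = 0.371). The 33 regions named by rule moved beyond their spread in 8 of 198 values.

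Leaving out 1 library at a time, which leaves 3 libraries to a region or 1 to a context, moved the counts most, because fewer libraries are asked. It moved YAC-only regions and regions with summits apart by over 1.5 times whichever library was left out, integrated-only regions without YAC replicate 2 (13) or either integrated replicate (27 and 13), and regions with the fold percentile higher on the YAC without YAC replicate 1 (17) or either integrated replicate (18 and 20). YAC-only regions ranged from 12 to 20, integrated-only regions from 10 to 27, regions with summits apart from 15 to 18, regions with the fold percentile higher on the YAC from 12 to 20 and higher when integrated from 19 to 21, regions in all libraries from 45 to 56 and regions in total from 122 to 137. The YAC to integrated enrichment ratio ranged from 2.40 to 2.65 and regions with both contexts apart, YAC higher, from 40 to 45. The YAC excess in peak number ranged from 0, without integrated replicate 1, to 6. Against native peaks, width ranged from 29.5 to 41.8 bp, divergent summits from 9.64 to 12.8 points, overlap from 21.6 to 25.2 points and summit displacement from 1.67 to 7.17 bp, where the median of 3 summits is one of them. Against synHPRT1R, width ranged from -9.21 to 7.79 bp.

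Same-numbered libraries did not deviate together (r = 0.0162 over 1565 native regions for synHPRT1 and -0.0485 over 1618 for synHPRT1R). The labels do not tell whether they share more than a number, and these correlations cannot decide it. With a replicate block the YAC excess stayed 3 peaks (exact sign-flip p = 1), and the differences from synHPRT1R were -3.5 peaks (p = 0.5), -0.125 bp in width (p = 1), -149.75 bp in spacing (p = 0.125) and 2.55 points in divergent summits (p = 0.75), by exact sign-flip. No call changed. Depth being unknown as a count, a region missing from a library was not detected there, which does not show that it was silent.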
